A study of Mus musculus with 30 samples.

Results

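The genes described are 10 lines of a table of 47643 gene symbols: the muscle acetylcholine receptor subunits Chrna1, Chrnb1, Chrnd, Chrng and Chrne, and the neuromuscular junction genes Musk, Rapsn, Dok7, Lrp4 and Ache. They were taken by name from the deposited transcript levels (TPM, a level per transcript length that sums to the same total in every library) of mouse tibialis anterior, a fast muscle of the lower leg, across 30 RNA-seq libraries in 8 groups. All mice were male C57BL/6J, and no genetic modification is given for any group in the labels. The 4 experiments were mice given dexamethasone (4 libraries) against their controls (4), mice labelled LLC cancer (4) against their controls (4), mice 24 months old (3) against mice 6 months old (3), and Cyr61 siRNAs (4) against NT siRNAs (4). Dexamethasone is a synthetic glucocorticoid, and Cyr61 encodes a secreted matricellular protein. Ages outside the ageing experiment, doses, the length of treatment, the handling of the control mice and the way siRNA was delivered are not described in the labels. The labels call the samples biological replicates without naming animals, so the p-values measure the spread between these samples.

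The receptor is the channel through which acetylcholine from the motor nerve depolarises the muscle fibre. It is built from alpha, beta and delta subunits (Chrna1, Chrnb1, Chrnd) with either gamma (Chrng), the subunit of fetal and denervated fibres, or epsilon (Chrne), the subunit of innervated adult fibres. Nerve-derived agrin binds Lrp4, which switches on the kinase encoded by Musk; the adaptor Dok7 activates that kinase from inside the fibre, rapsyn (Rapsn) gathers the receptors into clusters, and acetylcholinesterase (Ache) breaks the transmitter down. In innervated fibres these genes are transcribed mainly by the nuclei under the nerve ending. In denervated or immature fibres, nuclei along the whole fibre transcribe receptor genes other than Chrne, with myogenic factors acting on E-boxes, whereas an N-box bound by ETS factors has been described in the Chrne promoter.

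Promoter sequence was found in RefSeq (GRCm38.p6) for 7 of the 10 genes, as the 250 bases before a transcript start. None was found for Chrnd, Rapsn and Lrp4. The windows of Chrna1, Chrng and Musk are shown, genes called higher with dexamethasone both as deposited and after the scaling described below. Chrnd was called in the same way, so the set shown is incomplete. The window of Chrne is shown because it is the adult counterpart of Chrng. Chrnb1 and Dok7 were called higher as deposited only, and their windows, which held no CAGCTG, are not shown. Capitals mark CAGCTG, the E-box form preferred by myogenic factors, and CCGGAA, the core of the N-box. The Chrna1 window is chr2:73580339-73580588 (minus strand), the Chrng window chr1:87205561-87205810 (plus strand), the Musk window chr4:58285712-58285961 (plus strand) and the Chrne window chr11:70619195-70619444 (minus strand), each written 5' to 3' along its gene.
Chrna1: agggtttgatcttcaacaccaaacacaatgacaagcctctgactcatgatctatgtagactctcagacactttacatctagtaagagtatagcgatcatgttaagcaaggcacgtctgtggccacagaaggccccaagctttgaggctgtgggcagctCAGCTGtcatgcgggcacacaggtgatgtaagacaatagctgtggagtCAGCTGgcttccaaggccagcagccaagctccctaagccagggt
Chrng: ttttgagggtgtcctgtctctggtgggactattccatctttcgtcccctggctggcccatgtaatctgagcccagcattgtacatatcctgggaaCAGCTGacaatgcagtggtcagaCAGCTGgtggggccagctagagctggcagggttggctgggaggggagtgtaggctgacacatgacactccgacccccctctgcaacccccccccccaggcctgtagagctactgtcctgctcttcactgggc
Musk: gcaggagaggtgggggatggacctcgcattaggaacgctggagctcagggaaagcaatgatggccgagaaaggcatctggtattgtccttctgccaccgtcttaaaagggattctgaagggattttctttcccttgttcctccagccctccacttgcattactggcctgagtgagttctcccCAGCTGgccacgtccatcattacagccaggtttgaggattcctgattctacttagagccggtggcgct
Chrne: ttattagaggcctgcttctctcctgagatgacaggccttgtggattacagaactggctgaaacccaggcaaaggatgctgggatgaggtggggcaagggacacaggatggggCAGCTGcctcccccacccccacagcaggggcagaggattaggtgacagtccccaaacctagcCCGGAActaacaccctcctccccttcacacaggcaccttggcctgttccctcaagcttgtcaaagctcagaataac

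Chrna1 held CAGCTG at -92 and -44 from the start, Chrng at -155 and -132, Musk at -68 and Chrne at -138, and Chrne also held CCGGAA at -76. Chrnb1, Dok7 and Ache had no CAGCTG in their windows. Both strands were searched, and each CAGCTG is also an instance of the general E-box CANNTG, which was present in the windows of all 7 genes, though in only 1 of the 2 Dok7 windows. Of 32851 RefSeq mouse promoters of the same length, 66.2% held CANNTG, 13% held CAGCTG at least once, 1.26% held it 2 or more times and 12% held CCGGAA. A match of letters is not evidence of binding. In the mm10 gene models Chrnd (chr1:87190607-87200070, plus strand) lies 4586 bases upstream of Chrng (chr1:87204657-87212694, plus strand). The Chrng window shown therefore lies inside the longest gene model of Chrng, since RefSeq places its start further downstream. Exons of Rapsn overlap those of an opposite-strand transcript (Gm13778, mean 0.727 TPM), and exons of Ache overlap those of Gm42456 (mean 0.0142 TPM). The labels do not say how the counting used strand. Reads in the overlapping parts of those exons therefore cannot be told apart from those of the partners.

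Recovered reads (processing section) came to between 2.48e7 and 4.78e7 per library. The tissue label was read, as skeletal muscle, from 8 muscle fibre genes (Acta1, Ckm, Mylpf, Tnnt3, Myh4, Myh1, Myh2 and Pvalb). Their summed level was at least 67543 TPM in every library, which does not tell muscles apart. In the siRNA experiment the targeted gene itself, Cyr61, averaged 39.2 ± 12.3 TPM with Cyr61 siRNAs and 56.6 ± 13.9 TPM with NT siRNAs (SD, n = 4 each), and its values overlapped. Mitochondrially encoded genes made up 37.9 ± 3.17% of all TPM in dexamethasone muscle and 48.7 ± 2.09% in its control (SD, n = 4 each). TPM of a library add up to a constant, and beside this difference the median gene was 0.33 higher on the log2 scale with dexamethasone than in control. Median-of-ratios scaling, which sets the middle gene of each library level, removed this shift (median 0.02), and changes with dexamethasone are given with both scalings. The third LLC library had the largest mitochondrial share, at 60.4%.

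Across the 30 libraries the receptor subunits differed in both level and spread. Chrnb1 (12.4 to 68.5 TPM) and Rapsn (16.9 to 35.0 TPM) were measured well above background in every library, and Rapsn varied by a factor of 2.06 between its lowest and highest library. Chrne (7.35 to 17.6 TPM), Dok7 (5.60 to 16.01 TPM) and Ache (7.47 to 21.6 TPM) were about as even, with factors of 2.40, 2.86 and 2.90. Chrna1 spanned 2.72 to 73.1 TPM, a factor of 26.8, Chrnd 0.953 to 16.1 TPM, a factor of 16.9, and Musk 1.11 to 13.9 TPM, a factor of 12.5. Lrp4, the agrin receptor, was the lowest of the signalling genes, at 1.04 to 5.97 TPM. Chrng ran from no read in old 1 and young 1 to 11.1 TPM in dexamethasone 3, and 14 of the 30 libraries reached 1 TPM. The genes with a narrow range thus included the adult subunit and the clustering protein, and those with a wide range included the alpha, delta and gamma subunits and Musk.

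**Figure D1:**
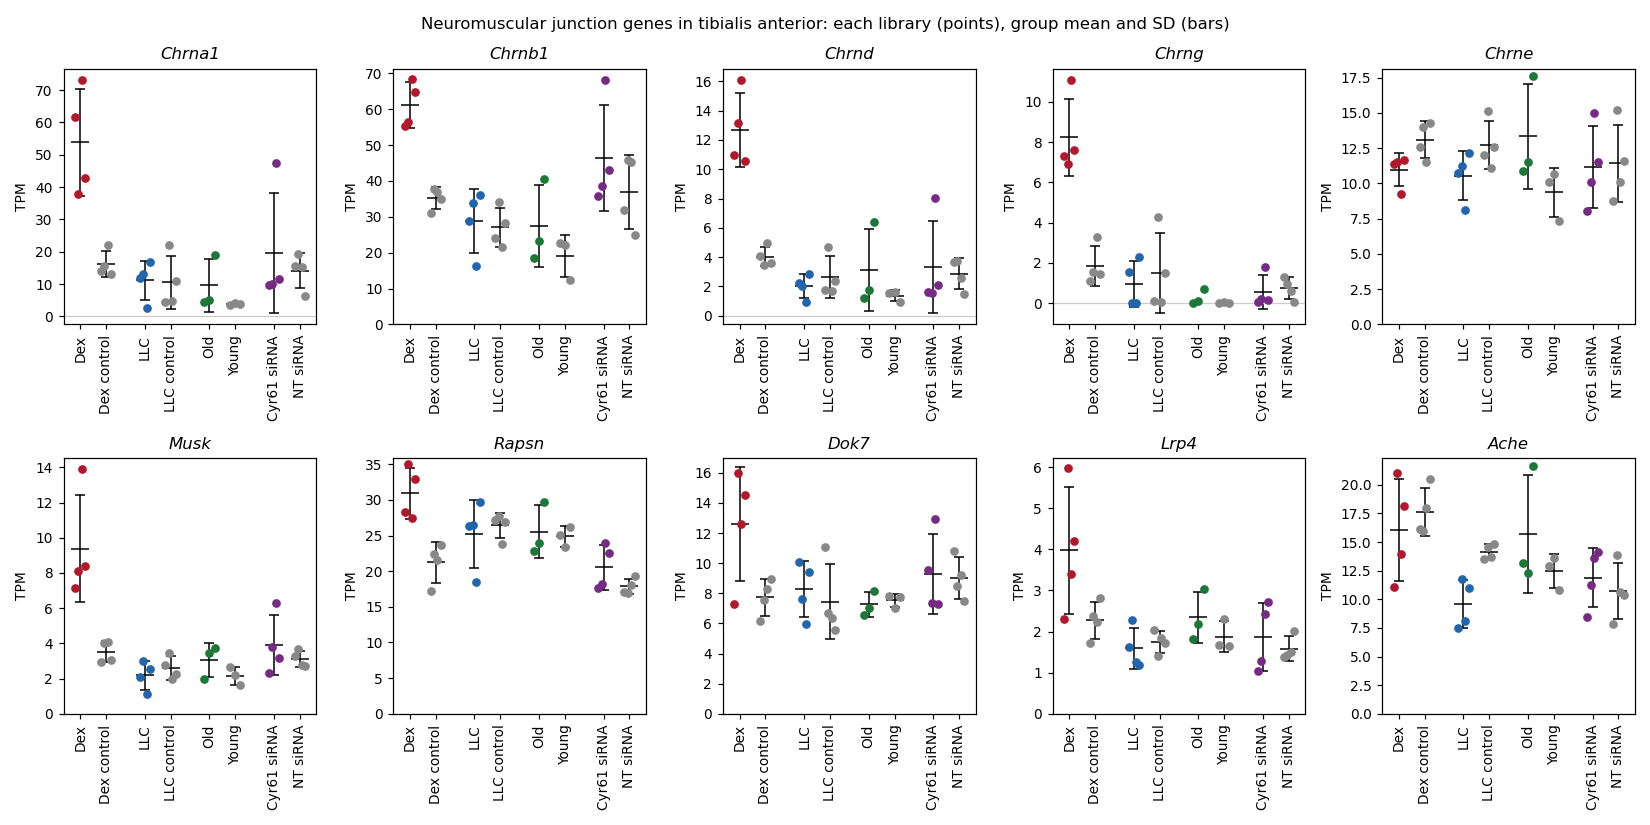
Level of each of the 10 genes in TPM (vertical axes, from 0) in every library (points) of the 8 groups, with the group mean and SD as bars, left out where a library of the group has no read (Chrng, old and young). Chrna1, Chrnb1, Chrnd, Chrng, Musk and Rapsn lie above all their controls in all 4 dexamethasone libraries, while Chrne and Ache do not, and single libraries of the old and Cyr61 siRNA groups stand above the rest of their group. In these deposited values the median gene was also 0.33 higher on the log2 scale with dexamethasone than in control. How many of all genes lay above all their controls in the same way was not counted.

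The comparison of dexamethasone with its control asks which transcripts change in muscle exposed to a glucocorticoid that causes wasting. Of the 10 genes, 7 rose and none fell (limma on log2(TPM + 1), Benjamini-Hochberg adjusted p under 0.05 over 11944 genes): Chrna1, Chrnb1, Chrnd, Chrng, Musk, Rapsn and Dok7. Across the whole table tested, calls of higher made up 35.9% and calls of lower 1.51%. After median-of-ratios scaling 4 genes remained higher (Chrna1, Chrnd, Chrng and Musk) and 2 were lower (Chrne and Ache), against 4.39% (higher) and 4.74% (lower) of the whole table. The share of higher calls among all calls was 96.0% as deposited and 48.0% after scaling. As deposited, 91.0% of all genes tested had a log2 change above 0. The share of all genes whose groups did not overlap was not counted in any comparison.

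Chrna1, the acetylcholine-binding alpha subunit, had 61.8, 37.7, 73.1 and 42.7 TPM in dexamethasone muscle, against 14.2, 15.7, 22.1 and 13.3 TPM in control muscle. Every treated library lay above every control library. The log2 change was 1.64 (SE 0.22, adjusted p = 0.00161), or 1.31 relative to the median gene, and 1.29 after scaling (adjusted p = 0.0174).

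Chrnd, the delta subunit, had 10.98, 13.2, 16.1 and 10.5 TPM in dexamethasone muscle, against 4.07, 3.49, 4.95 and 3.62 TPM in control muscle. The groups were again apart, with the lowest treated library above the highest control library. The log2 change was 1.43 (SE 0.15, adjusted p = 0.000697) and 1.12 after scaling (adjusted p = 0.00211).

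Chrng, the fetal gamma subunit, had 7.32, 6.93, 11.1 and 7.61 TPM in dexamethasone muscle, against 1.12, 1.53, 3.30 and 1.43 TPM in control muscle. These levels rested on 881, 537, 1205 and 744 reads with dexamethasone and on 126, 187, 359 and 145 reads in control. Dexamethasone 3 and control 3 were the highest of their groups, and the groups did not overlap. Its log2 change of 1.73 (SE 0.22, adjusted p = 0.00131) was the largest of the 10, with 1.46 after scaling (adjusted p = 0.00526).

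Chrne, the adult epsilon subunit, did not share this increase. It had 11.4, 11.5, 9.22 and 11.7 TPM with dexamethasone, against 12.6, 14.01, 11.5 and 14.3 TPM in control, and the groups overlapped, with dexamethasone 2 and 4 just above the lowest control. The log2 change as deposited was -0.24 (95% interval -0.50 to 0.02, adjusted p = 0.118), and after scaling it was -0.57 (adjusted p = 0.0245), a call of lower. Dexamethasone 3, the library with the most Chrng, had the least Chrne of its group.

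Chrnb1, the beta subunit, had 55.2, 56.4, 68.5 and 64.8 TPM with dexamethasone, against 31.0, 37.9, 36.9 and 34.8 TPM in control, without overlap. Its log2 change was 0.78 (SE 0.11, adjusted p = 0.00176) as deposited and 0.42 after scaling, where it missed the threshold (adjusted p = 0.0589). The receptor subunits thus differed in size of change, from Chrng, Chrna1 and Chrnd through Chrnb1 to Chrne.

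The balance of the subunit transcripts can be read within each library, where any scaling cancels. Chrng made up 39.1, 37.5, 54.6 and 39.4% of the TPM of Chrng and Chrne together in dexamethasone muscle, against 8.16, 9.86, 22.3 and 9.09% in control muscle. The lowest treated library lay above the highest control library. Chrna1 stood at 5.42, 3.27, 7.93 and 3.65 times Chrne with dexamethasone, against 1.13, 1.12, 1.92 and 0.93 times in control, again without overlap. These are ratios of transcripts, and subunit protein was not measured in these libraries.

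**Figure D2:**
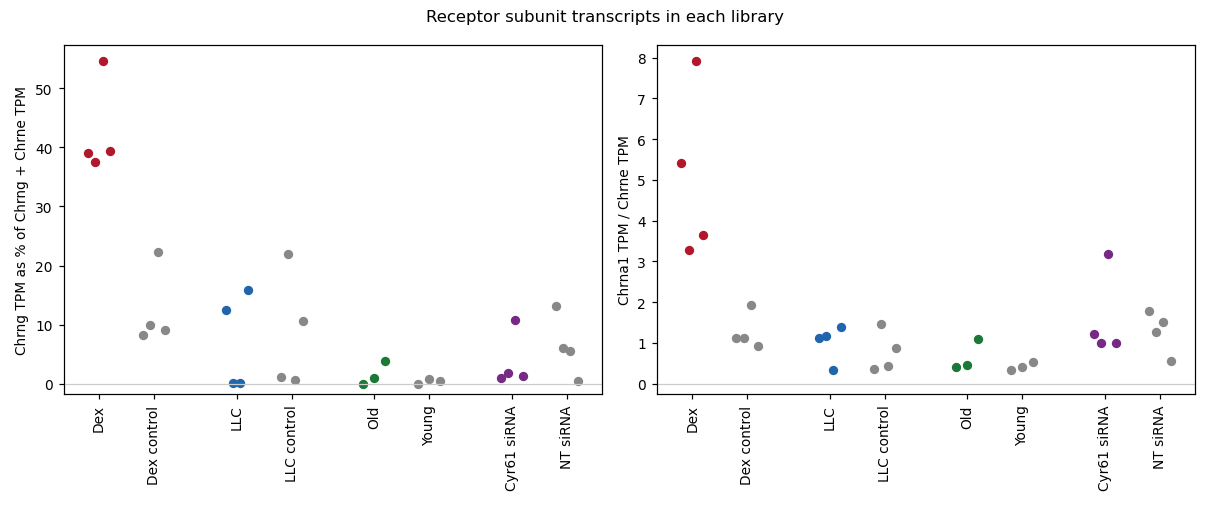
Chrng as a percentage of Chrng plus Chrne TPM (left) and the ratio of Chrna1 to Chrne TPM (right), one point per library in the 8 groups. The 4 dexamethasone libraries (37.5 to 54.6%, and 3.27 to 7.93) lie above every other library in both panels, with control libraries of 2 experiments reaching 22.3 and 22.03% on the left.

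Musk, the receptor kinase that starts postsynaptic assembly, had 7.12, 8.10, 13.9 and 8.42 TPM in dexamethasone muscle, against 2.97, 4.01, 4.08 and 3.05 TPM in control muscle. The groups were apart, and the log2 change was 1.17 (SE 0.19, adjusted p = 0.00321), with 0.86 after scaling (adjusted p = 0.0172). Rapsn, which anchors the receptor, had 28.3, 35.0, 27.5 and 32.9 TPM with dexamethasone, against 17.2, 22.3, 21.6 and 23.7 TPM in control. Its values also did not overlap, but the log2 change of 0.52 (SE 0.13, adjusted p = 0.0131) came down to 0.17 after scaling (adjusted p = 0.369).

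Dok7, the adaptor of that kinase, had 7.31, 16.01, 12.6 and 14.5 TPM with dexamethasone, against 6.14, 7.55, 8.29 and 8.98 TPM in control. Dexamethasone 1 lay within the control range and the other 3 treated libraries above it. The log2 change of 0.60 (SE 0.21, adjusted p = 0.0477) passed the threshold only narrowly: it passed when dexamethasone 1 was left out (adjusted p = 0.00225) and missed it when any one of the other 7 libraries was left out, up to an adjusted p of 0.129. After scaling it was 0.27 (adjusted p = 0.273).

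Lrp4 had 2.31, 5.97, 3.41 and 4.21 TPM with dexamethasone, against 1.71, 2.37, 2.22 and 2.80 TPM in control, and dexamethasone 1 was again the low library. The log2 change of 0.56 (SE 0.21) did not pass (adjusted p = 0.0565). After scaling it was 0.28 (adjusted p = 0.272), and as deposited it passed without dexamethasone 1 (adjusted p = 0.00611). Ache had 11.1, 21.1, 13.98 and 18.1 TPM with dexamethasone, against 16.1, 15.96, 18.0 and 20.5 TPM in control, with overlapping groups. Its log2 change was -0.16 (SE 0.18, adjusted p = 0.458) as deposited and -0.51 after scaling, a call of lower (adjusted p = 0.0223).

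**Figure D3:**
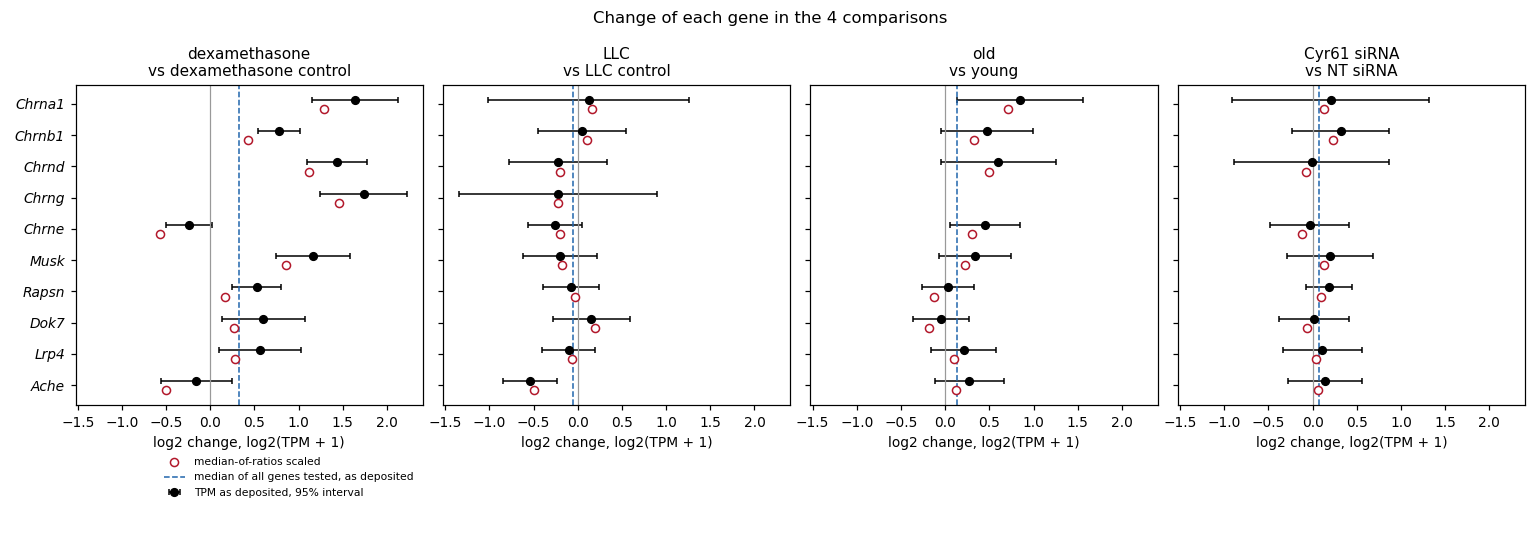
Log2 change of each gene on the log2(TPM + 1) scale in the 4 comparisons, as deposited (filled points, 95% interval) and after median-of-ratios scaling (open points); the dashed line is the median of all genes tested, and Chrng was under the filter in the ageing and siRNA comparisons. With dexamethasone Chrng, Chrna1, Chrnd and Musk lie at 1.17 or more while Chrne (-0.24) and Ache (-0.16) lie below 0, and in the LLC comparison Ache (-0.54) is furthest from 0.

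A list of other genes of the postsynaptic apparatus and the synaptic basal lamina was read in the same muscles. Of 28 such genes, 25 were tested, 10 rose and none fell as deposited, where 35.9% of all genes rose, and 4 rose after scaling, where 4.39% of all genes did. Their median change was 0.07 relative to the median gene. The 4 were Sntb1, a syntrophin of the dystrophin complex, with 8.23 ± 3.28 TPM against 2.78 ± 0.617 TPM, the intermediate filament gene Nes, with 40.0 ± 9.16 TPM against 19.3 ± 4.79 TPM, and the neuregulin receptor genes Erbb2, with 4.12 ± 1.11 TPM against 1.75 ± 0.319 TPM, and Erbb3, with 5.10 ± 1.08 TPM against 2.66 ± 0.288 TPM (dexamethasone against control, SD, n = 4 each). These 4 had adjusted p of 0.0101 to 0.0268 after scaling.

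Genes known to rise after denervation were read in the same way. The list shares Myog with the regenerating fibre markers given next. Of 12 listed, 9 were tested, 8 rose and none fell as deposited, beside the 35.9% of all genes, and 7 rose after scaling, beside 4.39%. Their median change was 1.14 relative to the median gene, and whether it differed from that of the junction genes was not tested. The cell cycle inhibitor gene Cdkn1a averaged 99.9 ± 26.8 TPM with dexamethasone and 25.1 ± 6.64 TPM in control, and the cell adhesion gene Ncam1 13.8 ± 2.88 TPM and 3.46 ± 1.29 TPM. The transcription factor gene Runx1 averaged 5.67 ± 1.29 TPM with dexamethasone and 1.48 ± 0.349 TPM in control. Fgfbp1 was the tested gene of this list that was not called, with a log2 change of 0.12 (adjusted p = 0.598).

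Markers of other cells moved in the same libraries. Beside them, 35.9% of all genes were called higher and 1.51% lower as deposited, and 4.39% higher and 4.74% lower after scaling. Of 8 satellite cell and regenerating fibre markers, 7 rose and none fell as deposited, and 5 rose after scaling (Myog, Mymk, Mymx, Myh3 and Myh8). Their summed level ran from 293 to 440 TPM with dexamethasone and from 54.5 to 166 TPM in control, and Myh3, the embryonic myosin gene, was at 109, 111, 148 and 87.6 TPM with dexamethasone, against 8.73, 21.2, 57.5 and 21.4 TPM in control. Pax7, which defines the satellite cell itself, averaged 1.68 ± 0.484 TPM with dexamethasone and 1.29 ± 0.0723 TPM in control (adjusted p = 0.208). None of the 8 markers was at 0 in these libraries. All 8 macrophage markers rose as deposited and 4 after scaling, with summed levels of 1079 to 2622 TPM with dexamethasone and 303 to 523 TPM in control. Of 7 tested Schwann cell and nerve markers of 10 listed none was called under either scaling, with sums of 41.0 to 61.3 TPM with dexamethasone and 38.6 to 58.3 TPM in control. Of 6 endothelial markers 1 fell as deposited and 4 after scaling. Of 6 fibroblast and tendon markers 2 rose and 1 fell as deposited, and 1 rose and 1 fell after scaling. The 2 higher calls were near the share of all genes called higher as deposited. None of the 8 muscle fibre markers was called under either scaling. In whole muscle, a different number of cells or fibres of a kind and a different amount of RNA in each cannot be told apart, and the part of these cells in the receptor changes was not tested.

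**Figure D4:**
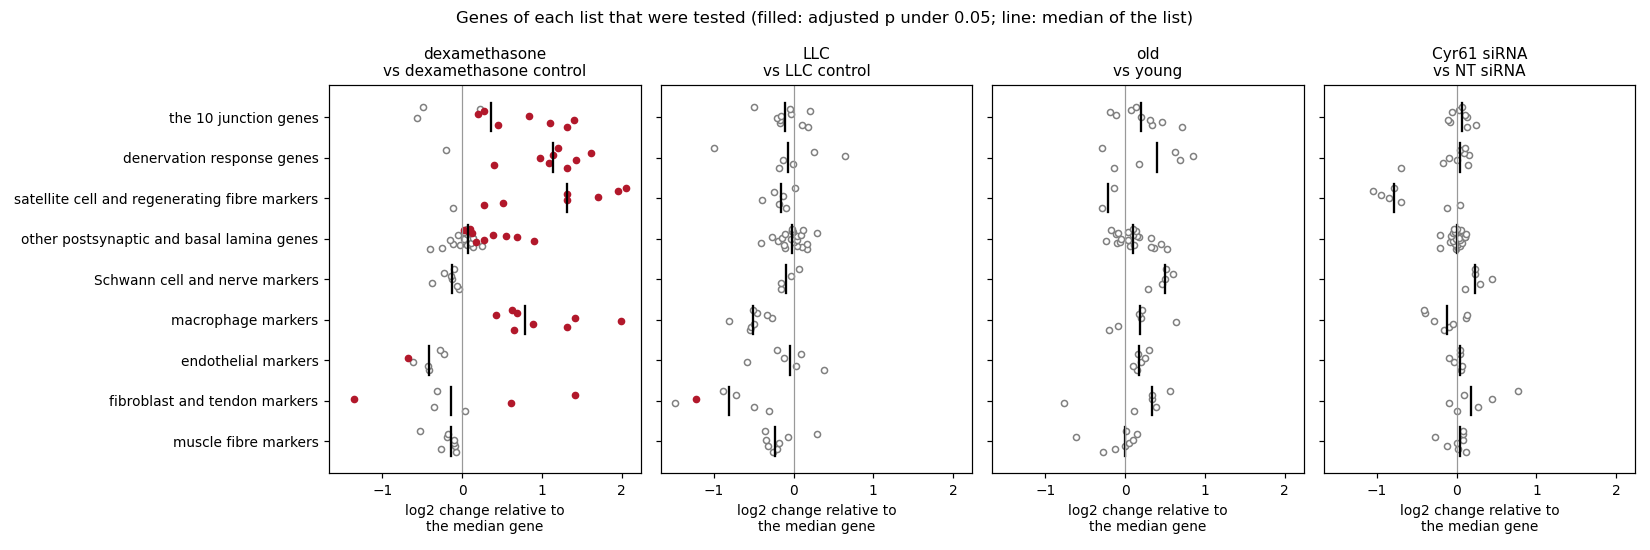
Log2 change relative to the median gene for every tested gene of the 10 junction genes and of 8 lists in the 4 comparisons. Points are filled where the adjusted p of the deposited change, not of the relative change, was under 0.05. Vertical lines are list medians. With dexamethasone Rapsn (0.20) and Dok7 (0.27) are filled but were not called after scaling. Chrne (-0.57) and Ache (-0.49) are open but were called lower after it. With dexamethasone the medians are 1.31 for satellite cell and regenerating fibre markers, 1.14 for denervation response genes and 0.07 for other postsynaptic and basal lamina genes, and in the other comparisons Tnmd, in the LLC panel, is the filled point.

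In the comparison of LLC cancer with its control, none of the 10 genes was called (limma), against 1.18% of 10830 genes called in either direction. Of the 10, 1 gene, Ache, had an unadjusted p under 0.05, as did 1429 of the 10830 genes. Ache, whose product ends the transmitter signal, had 7.47, 11.7, 8.06 and 11.02 TPM in LLC muscle, against 13.5, 14.6, 13.7 and 14.8 TPM in control muscle. All 4 LLC libraries lay below all 4 controls. The log2 change was -0.54 (SE 0.14, adjusted p = 0.0984) as deposited, and -0.49 after scaling, where it passed (adjusted p = 0.0360); 1.57% of all genes were called lower after scaling. The summed level of the 8 muscle fibre markers was also lower in every LLC library (67543 to 98866 TPM) than in every control (103075 to 111378 TPM), though none of the 8 was called. The 8 macrophage markers had a median log2 change of -0.55 and none was called, and the 6 fibroblast and tendon markers had one of -0.85, with 1 called lower. The part of these markers in the Ache values was not tested.

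The receptor subunits varied widely within both LLC groups. Chrna1 had 11.9, 13.2, 2.72 and 16.9 TPM in LLC muscle, against 4.40, 22.02, 4.77 and 10.97 TPM in control muscle. The highest and the second lowest of these 8 values belonged to control libraries, and the log2 change of 0.13 had a 95% interval from -1.01 to 1.26 (adjusted p = 0.963). Chrng had 1.53, 0.0215, 0.00902 and 2.29 TPM in LLC muscle, on 164, 2, 1 and 233 reads, against 0.129, 4.28, 0.0755 and 1.49 TPM in control muscle, on 13, 417, 8 and 153 reads. In each group 2 libraries stood above 1 TPM and 2 far below it, and 2 LLC libraries lay under 3 reads, the lowest count read as detection. The log2 difference of Chrng was -0.22 (95% interval -1.35 to 0.90, adjusted p = 0.920).

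Myh3 was high in the same libraries as Chrng, at 26.5, 0.511, 0.291 and 19.8 TPM in LLC muscle and 1.78, 33.9, 0.811 and 13.3 TPM in control muscle. None of the 6 tested satellite cell and regenerating fibre markers was called in this comparison, with sums of 11.8 to 85.7 TPM in LLC muscle and 14.3 to 101 TPM in control muscle. Their part in the spread of Chrng was not tested. Chrnd had 2.26, 2.02, 0.959 and 2.88 TPM in LLC muscle, against 1.73, 4.71, 1.67 and 2.36 TPM in control muscle, with a log2 change of -0.23 (95% interval -0.78 to 0.33). Chrne had 10.7, 11.3, 8.08 and 12.1 TPM in LLC muscle, against 12.007, 15.2, 11.1 and 12.6 TPM in control muscle, with a log2 change of -0.25 (95% interval -0.56 to 0.05, adjusted p = 0.485). The other 5 genes had log2 changes between -0.20 (Musk) and 0.15 (Dok7), with adjusted p of 0.738 to 0.967. None of the 22 tested other postsynaptic and basal lamina genes and none of the 6 tested denervation response genes was called. LLC 3, the library with the largest mitochondrial share, was the lowest of its group for 8 of the 10 genes.

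In the comparison of mice 24 months old with mice 6 months old, 9 of the 10 genes passed the filter and none was called (limma). Calls in either direction made up 0.171% of 10511 genes. Of the 9, 2 genes, Chrna1 and Chrne, had an unadjusted p under 0.05, as did 1174 of the 10511 genes. The median gene was 0.14 higher on the log2 scale in old muscle, a shift that scaling removed. Chrna1 had 4.38, 5.23 and 19.1 TPM in old muscle, against 3.47, 4.29 and 3.90 TPM in young muscle. The old values lay above the young ones, but 2 of them narrowly so, and that of old 3 far above. The log2 change was 0.85 (95% interval 0.14 to 1.56, adjusted p = 0.386, limma), with 0.71 after scaling, and 0.25 without old 3 (adjusted p = 0.807). It was called without old 2 (adjusted p = 0.000449) and without young 2 (adjusted p = 0.0310), and both of these fits held old 3.

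Chrne had 10.9, 11.5 and 17.6 TPM in old muscle, against 10.1, 10.7 and 7.35 TPM in young muscle. These groups also did not overlap, with a log2 change of 0.45 (95% interval 0.06 to 0.85, adjusted p = 0.402, limma), and 0.31 after scaling. Chrnd had 1.25, 1.75 and 6.37 TPM in old muscle, against 1.57, 1.59 and 0.953 TPM in young muscle, overlapping, with a log2 change of 0.60 (95% interval -0.05 to 1.26, adjusted p = 0.472) and 0.49 after scaling; it was called without old 2 (adjusted p = 0.0331). Chrnb1 had 18.6, 23.1 and 40.5 TPM in old muscle, against 22.7, 22.2 and 12.4 TPM in young muscle, with a log2 change of 0.47 (adjusted p = 0.480) and 0.32 after scaling.

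Chrng was under the filter in this comparison. It had 0, 0.107 and 0.717 TPM in old muscle, on 0, 8 and 45 reads, against 0, 0.0777 and 0.0274 TPM in young muscle, on 0, 6 and 2 reads. The limit that 3 reads set was 0.0476 TPM in old 1 and 0.0454 TPM in young 1. The groups overlapped, and the exact permutation test gave p = 0.4, where 3 against 3 cannot go below 0.1.

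Old 3 was the highest of the old libraries for all 10 genes, so that each higher mean in old muscle rested in part on 1 library. Old 3 also had the lowest mitochondrial share of the old libraries, at 43.7%, against 51.4% in old 1 and 50.5% in old 2. Its summed muscle fibre markers (109682 TPM) and endothelial markers (118.5 TPM) were the highest of the old group. The part of the mitochondrial share in the values of old 3 was not tested. Musk had 1.96, 3.43 and 3.76 TPM in old muscle, against 2.67, 2.20 and 1.63 TPM in young muscle (log2 change 0.34, adjusted p = 0.516, and 0.23 after scaling), and Ache had 13.1, 12.3 and 21.6 TPM, against 12.95, 13.6 and 10.8 TPM in young muscle (log2 change 0.27, adjusted p = 0.583, and 0.13 after scaling). Rapsn, Dok7 and Lrp4 had log2 changes of 0.03, -0.05 and 0.21, with adjusted p of 0.633 to 0.936, and of -0.12, -0.19 and 0.10 after scaling, which turned the sign of Rapsn. In old 3 the summed Schwann cell and nerve markers stood at 73.5 TPM, while the other 2 old libraries had sums of 28.004 and 34.6 TPM and the young libraries 17.4 to 34.04 TPM. The summed satellite cell and regenerating fibre markers stood at 42.5 TPM in old 3, against 13.9 and 22.6 TPM in the other old libraries, and at 20.3 to 30.9 TPM in young muscle. Within that list Myog was at 7.76 TPM and Mymx at 4.59 TPM in old 3, above every other library of the experiment, while Myh3, at 1.11 TPM, lay within the 0.610 to 1.26 TPM of the old group. The summed denervation response genes were at 159.5 TPM in old 3, against 57.7 and 86.6 TPM in the other old libraries, and at 47.1 to 87.3 TPM in young muscle. None of the 5 tested Schwann cell and nerve markers, the 21 other postsynaptic and basal lamina genes or the 6 denervation response genes tested was called, and the part of nerve tissue or regenerating fibres in the values of old 3 was not tested.

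With Cyr61 siRNAs against NT siRNAs, 9 of the 10 genes passed the filter and none was called (limma), against 0% of 11006 genes called in either direction; none of the 9 had an unadjusted p under 0.05, while 109 of all genes did as deposited and 184 after scaling, and voom on recovered reads called 0 genes as well. Chrna1 had 9.69, 9.98, 47.5 and 11.6 TPM with Cyr61 siRNAs, against 15.6, 19.2, 15.4 and 6.41 TPM with NT siRNAs. Library 3 of the Cyr61 group lay far above all others and the remaining 3 within the NT range. The log2 change was 0.21 (95% interval -0.91 to 1.32, adjusted p = 0.999) with that library, 0.12 after scaling, and -0.32 without it.

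Chrnd had 1.64, 1.58, 8.004 and 2.10 TPM with Cyr61 siRNAs, against 3.69, 3.72, 2.55 and 1.497 TPM with NT siRNAs, with a log2 change of -0.01 (95% interval -0.89 to 0.87). Chrng had 0.0743, 0.194, 1.80 and 0.153 TPM with Cyr61 siRNAs, on 7, 18, 142 and 14 reads, against 1.32, 0.976, 0.601 and 0.0514 TPM with NT siRNAs, on 124, 90, 48 and 5 reads. Here too library 3 was the high one of the Cyr61 group, and the groups overlapped. Chrng was under the filter, and the exact permutation test gave p = 0.629, where 4 against 4 can reach 0.0286; adjusted over this and the same test in old muscle, both stood at 0.629.

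The third Cyr61 siRNA library was the highest of its group for 8 of the 10 genes. Its mitochondrial share was the lowest of the group, at 42.2%, against 49.5 to 52.0% in the other 3. The part of that share in its values was not tested. In this library Runx1 was at 3.52 TPM and Ncam1 at 6.02 TPM. The other 3 libraries of the group had at most 1.28 TPM of Runx1 and 1.04 TPM of Ncam1. Its summed satellite cell and regenerating fibre markers were 82.9 TPM, against 20.6 to 32.1 TPM in the other 3, and its Schwann cell and nerve markers, at 18.8 TPM, were the lowest of the group. The remaining 6 tested genes (Chrnb1, Musk, Rapsn, Dok7, Lrp4 and Ache) had log2 changes between 0.02 and 0.32, and Chrne one of -0.03, all with an adjusted p of 0.999. After scaling the 6 ran from -0.07 (Dok7, which turned sign) to 0.23, and Chrne stood at -0.12. None of the 24 other postsynaptic and basal lamina genes and none of the 9 denervation response genes tested was called.

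Whether the response differed between experiments was tested in 1 fit of the 22 libraries of the dexamethasone, LLC and ageing experiments, whose controls are not shared. The dexamethasone response was larger than the LLC response for 4 of the 10 genes: Chrng by 1.96 (adjusted p = 0.0212), Chrnd by 1.66 (adjusted p = 0.00870), Musk by 1.37 (adjusted p = 0.00396) and Rapsn by 0.61 (adjusted p = 0.0253), all on the log2 scale by limma. Of 12392 genes tested, 26.5% had a larger response to dexamethasone, and the median gene differed by 0.37. After scaling Musk remained, by 1.01 (adjusted p = 0.0205), against 3.44% of all genes, while Chrnd stood at 1.29 (adjusted p = 0.0504), Chrng at 1.63 (adjusted p = 0.129) and Rapsn at 0.19 (adjusted p = 0.446). The Chrng difference was also not called with a pseudocount of 0.1 (2.80, adjusted p = 0.112) or by voom on recovered reads (3.40, adjusted p = 0.153). Without LLC 3 neither the Chrng difference (adjusted p = 0.0554) nor that of Rapsn was called, and that of Rapsn was not called without control 1 of the dexamethasone experiment either. Chrna1 differed by 1.51 (95% interval 0.16 to 2.87), which did not pass (adjusted p = 0.0780), and by 1.11 after scaling.

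Between the dexamethasone and ageing responses none of the 10 genes differed as deposited, against 2.06% of genes called in either direction. After scaling the Chrne response was lower with dexamethasone than with age by 0.89 on the log2 scale (limma, adjusted p = 0.00868), with scaled changes of -0.57 with dexamethasone and 0.31 with age, against 2.1% of all genes called lower. Between the LLC and ageing responses none of the 10 differed, against 0.0484% of all genes.

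The order of the group means was as follows. For Chrnd, Chrng and Musk the dexamethasone group was highest and its range did not reach into that of the next group; all later neighbours in the order overlapped. For Chrna1, dexamethasone (53.8 ± 16.5 TPM, SD, n = 4) was followed by Cyr61 siRNA (19.7 ± 18.6 TPM), of which library 3 reached into the dexamethasone range, and young muscle was last (3.89 ± 0.409 TPM, n = 3), apart from old muscle (9.58 ± 8.28 TPM, n = 3). For Chrne, the order ran from old (13.3 ± 3.73 TPM, n = 3) to young (9.36 ± 1.76 TPM, n = 3), with every neighbour overlapping and the dexamethasone group between Cyr61 siRNA and LLC. For Ache, the dexamethasone control was first (17.6 ± 2.11 TPM, n = 4) and LLC last (9.57 ± 2.12 TPM, n = 4). Libraries of different experiments may differ by batch, which cannot be told apart from the experiment.

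Likeness between genes was described by Pearson's r over the 30 libraries on scaled log2 values, each as a deviation from its own control group, among 10926 genes. These points share libraries and scaling, and the dexamethasone group sets much of the range, so no p is given. The 5 genes most like Chrna1 were Cdkn1a (0.92), Chrnd (0.91), Qsox1 (0.90), Rpl3 (0.89) and Dnase2a (0.89). Those most like Chrnd were Chrna1 (0.91), Slc4a3 (0.91), Runx1 (0.91), Maged1 (0.91) and Ncam1 (0.91). Those most like Chrne were Chst15 (0.78), Pnck (0.77), Ccl8 (0.76), Ociad2 (0.76) and Ufsp1 (0.74), so no gene followed the adult subunit as closely as Chrnd followed Chrna1. Among the 9 junction genes that could be ranked, Chrna1 had an r of 0.86 with Chrnb1, 0.76 with Musk and -0.02 with Chrne. Chrne had its highest r within the set with Ache (0.73), and its lowest with Dok7 (-0.55).

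**Figure D5:**
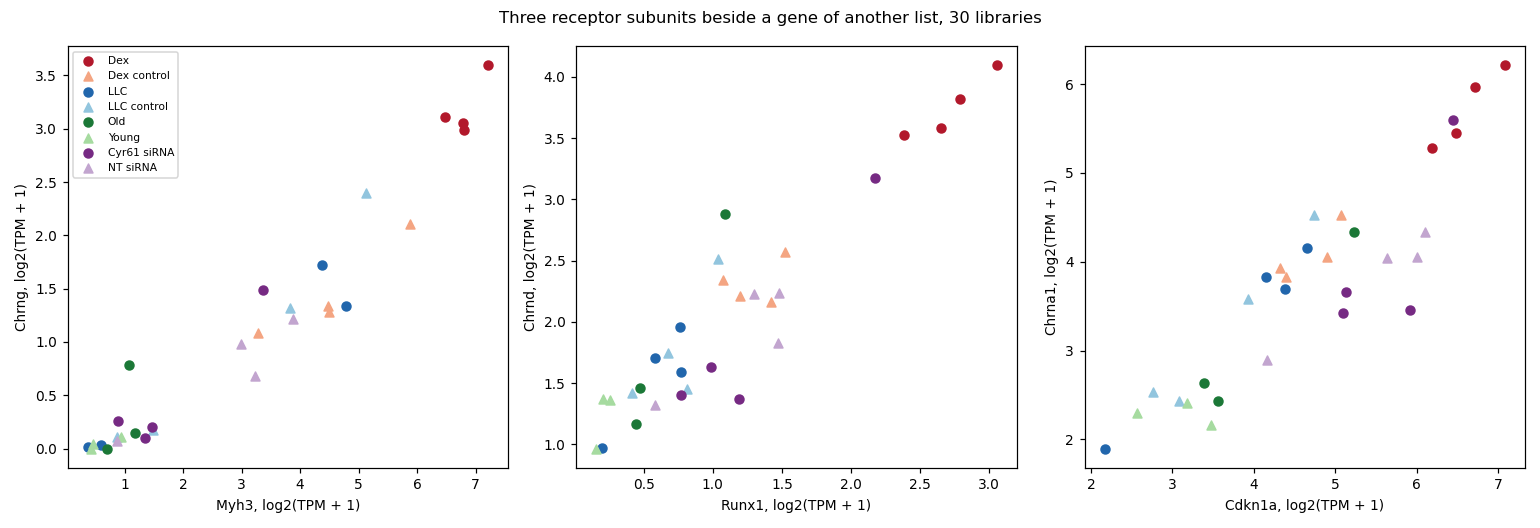
Chrng against Myh3, Chrnd against Runx1 and Chrna1 against Cdkn1a, as log2(TPM + 1) of the deposited values, one point per library with groups by colour and controls as triangles. The 4 dexamethasone libraries lie at the upper right of each panel; in the middle and right panels the third Cyr61 siRNA library lies near them, while old 3, with 0.717 TPM of Chrng and 1.11 TPM of Myh3, lies above the other points of similar Myh3 in the left panel.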

How the data were processed

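Libraries from 30 tibialis anterior samples were made with a TruSeq stranded mRNA kit, per the labels' protocols. The authors deposited TPM per gene symbol, each library summing to 1000000, on mm10 per the submitters' processing notes. The aligner, counter, use of strand and gene models were not given in the sources used here. The 10 genes, the other gene lists and the tests were chosen with earlier results of these data known.

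Reads behind each TPM were recovered by multiplying by the summed exon length of GENCODE M21 and dividing by 1 factor per library. Values came out whole (within 0.05 read, or within 2e-05 of the value if larger) in all libraries for all 10 genes and for 71.5% of the 22209 matched genes above 0, so the read totals are partial. Floors of 3 reads cover counting error only, and reads carried no molecular identifiers; the 95% intervals are limma's and come from the spread between samples.

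Each experiment was fitted alone with limma 3.58.1 in R 4.3.3 (linear model, variance trend, two-sided) on log2(TPM + 1), for genes reaching 1 TPM in a number of libraries no lower than the size of the smaller group. Fold changes on this scale understate those of low genes. A call was an adjusted p (Benjamini-Hochberg, over every gene tested) under 0.05. Responses were compared by interaction contrasts in 1 fit of 22 libraries. Chrng, where it was under the filter, was tested by an exact two-sided permutation test. Median-of-ratios scaling divided each library by the median ratio to the geometric mean library. All 10 genes are named; of the other lists, called genes and the largest changes are. Mymk and Mymx are listed under older symbols and were matched through RefSeq synonyms. Alternatives were other pseudocounts, filters, scalings, thresholds and variance settings, a replicate block, voom (limma) on recovered reads, and leaving out each library. The fits were checked on simulated data.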

Additional observations from a re-analysis of the deposited data

Results flagged for a closer look

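In groups of 4 libraries, 60 sets of values were examined for a single library far from the other 3, and 6 were found. The cut is one that about 1 in 20 sets of normally spread values pass. These sets share libraries and are not independent, so the 6 cannot be set against that rate. Cyr61 siRNA 3 stood apart with 47.5 TPM of Chrna1, 8.004 TPM of Chrnd and 1.80 TPM of Chrng. Dexamethasone 3 stood apart with 11.1 TPM of Chrng, above its group, and with 9.22 TPM of Chrne, below its group. NT siRNA 4 stood apart with 2.02 TPM of Lrp4, only just past the cut: its gap over the range of the group was 0.8293, where the cut was 0.829.

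By the interaction test (limma) on the deposited values, the dexamethasone response minus the LLC response was 1.66 for Chrnd, 1.96 for Chrng, 1.37 for Musk and 0.61 for Rapsn on the log2 scale. These were 4 of the 10 genes, where 26.5% of all genes were called with a larger response. After median-of-ratios scaling Musk remained, and Chrnd, Chrng and Rapsn were no longer called. The dexamethasone response minus the ageing response was -0.89 for Chrne after that scaling, and was not called as deposited.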

How the results depend on the processing

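Chrna1, Chrnd, Chrng and Musk were called higher with dexamethasone under every alternative run. The number of the 10 genes called was 7, and 6 to 8 when a library was left out. It was 5 at an adjusted p under 0.01 and 6 with median-of-ratios scaling (4 higher, 2 lower). Without mitochondrially encoded genes it was 6 (5 higher, 1 lower), and with voom 7 (6 higher, 1 lower). With dexamethasone Ache was called lower in 3 of 21 alternatives and Chrne in 5 of 21. In LLC muscle the number was 0, and 1 (Ache) with median-of-ratios scaling (from here MOR), the replicate block, both together, or voom with MOR; it was 0 to 0 with a library left out. In old muscle it was 0, and 1 (Chrna1) with the replicate block, and 0 to 2 with a library left out; with siRNA it was 0 to 0. For the dexamethasone minus LLC response it was 4, but 3 with a pseudocount of 0.1, 2 at an adjusted p under 0.01, 1 with MOR, 1 without mitochondrially encoded genes, 2 with the block and MOR, 2 with voom and 1 with voom and MOR, 6 with the replicate block alone, and 2 to 6 with a library left out. For dexamethasone minus old it was 0, but 1 with MOR, 1 without mitochondrial genes, 1 with voom and MOR, 2 with the block and MOR, and 0 to 1 with a library left out (Chrnd, without old 3); for LLC minus old it was 0 to 0. The voom fits and the block with MOR were chosen after seeing the data. Replicate numbers were not taken as pairs, since in each experiment a same-numbered correlation of deviations was under 0.1, though all were above 0: 0.0267 to 0.498 in the dexamethasone, 0.0408 to 0.374 in the LLC, 0.0442 to 0.135 in the ageing and 0.0937 to 0.498 in the siRNA experiment, and 2 of 4, 3 of 4, 2 of 3 and 2 of 4 were most like their own number; with the block 8 genes were called with dexamethasone. Directions turned only where nothing was called. Rapsn in LLC muscle was 0.062 without mitochondrial genes; Rapsn in old muscle was -0.12 with MOR (with and without the block), -0.026 without mitochondrial genes, -0.014 with voom and -0.17 with voom and MOR; Dok7 with Cyr61 siRNA was -0.066 with MOR (with and without the block), -0.0474 without mitochondrial genes, -0.023 with voom and -0.076 with voom and MOR. With a library left out, log2 changes in LLC muscle ran from -0.15 to 0.63 (Chrna1), -0.076 to 0.29 (Chrnb1), -0.36 to 0.018 (Chrnd), -0.54 to 0.24 (Chrng) and -0.16 to 0.057 (Rapsn), in old muscle from -0.083 to 0.10 (Rapsn) and -0.12 to 0.012 (Dok7), and with siRNA from -0.32 to 0.41 (Chrna1), -0.44 to 0.16 (Chrnd), -0.18 to 0.10 (Chrne), -0.011 to 0.37 (Musk), -0.14 to 0.11 (Dok7) and -0.031 to 0.26 (Lrp4). Over all genes, calls higher and lower with dexamethasone were 4290 and 180, but 525 and 568 with MOR, 721 and 384 without mitochondrial genes, 1377 and 165 with voom, and 1796 to 8495 higher with a library left out; with LLC 32 and 96, but 183 and 170 with MOR, 422 and 124 without mitochondrial genes, 5 and 3 with no filter, 136 and 366 with the block, 74 and 85 with voom, and from 5 and 14 (without LLC control 4) to 226 and 135 (without LLC 3) with a library left out; with age 16 and 2, but 0 with MOR, 80 and 6 with robust variances, 133 and 19 with the block, and from 0 and 0 (without young 3) to 252 and 22 (without young 1) with a library left out. These counts are not over the same genes. With dexamethasone 11944 genes were tested as deposited, 12961 without mitochondrial genes and 7390 with voom, which used only genes with recovered reads. The cause of these shifts was not tested. Chrng rests on 0 to 45 reads per library in the ageing experiment, where smaller differences could not be detected at this depth.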
